A study of Mus musculus with 6 samples.

Results

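Complement is a set of plasma and tissue proteins that tag microbes, immune complexes and dying cells for clearance. In the classical pathway C1q, a complex built from the products of C1qa, C1qb and C1qc, binds its target and, with the proteases C1r and C1s, cleaves C4 and C2, which leads to cleavage of C3, the protein on which all activation routes converge. Serping1 encodes the C1 inhibitor, a secreted serpin that inactivates C1r and C1s, and Cd55 encodes decay-accelerating factor, a membrane protein that breaks up the enzymes that cleave C3. Tissue macrophages are a well known source of C1q outside the liver, and stromal cells in many organs transcribe C3 and the C1 inhibitor.

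The 7 genes C1qa, C1qb, C1qc, C3, C4b, Serping1 and Cd55 were taken by gene symbol, and each symbol stood once among the 31053 genes of the count tables. They were described by the class of pancreatic cell that held their transcripts and by their level in each library. C4b encodes a form of C4. Reads of C4b and its close copy C4a, and of Cd55 and its close copy Cd55b, may not be fully separable, so values of both genes carry that uncertainty. C4a was not analysed here, and Cd55b had 2 UMIs in the kept cells, both in B or plasma-like cells.

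The study sequenced cells of the pancreas, one by one, from mice of the strain R26[CA]30EYFP with a C57Bl/6J background. In this strain a yellow fluorescent protein, EYFP, sits behind a CA repeat that keeps it out of frame, and a chance slip during division switches it on, so that EYFP marks a cell and its offspring in any cell type. There were 6 libraries: 1 EYFP positive and 1 EYFP negative library after cerulein (run 3), and 2 EYFP positive and 2 EYFP negative libraries in homeostasis, from untreated mice (runs 1 and 2). Cerulein, a secretagogue that causes pancreatitis in excess, was injected into the peritoneum at 50 ug/kg in PBS, hourly 7 times a day on 2 days, and cells were taken 9 days later. Whether each library is a different animal is not in the labels, and p-values here reflect only how far these 6 libraries differ. Cerulein and run 3 cannot be told apart. The EYFP sort could not be checked, since 0 genes in the tables were EYFP.

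A UMI (unique molecular identifier) stands for 1 captured transcript. The tables held 8582 barcodes and 44833541 UMIs, with 1044718 to 23658431 UMIs per library, and 4789 cells were kept, with a median of 2704.5 to 7385.5 UMIs per cell by library. Haemoglobin genes gave 20.2% of deposited UMIs in the EYFP positive and 62.6% in the EYFP negative cerulein library, against 0.213% to 7.23% in the homeostasis libraries. The EYFP positive and EYFP negative libraries of runs 1, 2 and 3 shared 23, 71 and 47 deposited barcodes, while libraries of different runs shared 0 to 2. Within runs, the smaller copy of such a barcode had a median of 3.08%, 8.62% and 6.50% of the UMIs of the larger, and 99 smaller copies were left out.

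Cells were clustered without complement genes, so that the classes below do not rest on the genes described. The classes carry names of likeness from marker genes. The macrophage/monocyte-like class held 164 cells led by Lyz2, Tyrobp, Fcer1g, Ctss and Apoe. It was a mixed myeloid class, in which sub-clusters described below also held dendritic-like and unnamed cells, and shares are over all 164. The fibroblast-like class held 167 cells led by Dcn, Gsn, Col3a1, Col1a2 and Lum, and the ductal-like class held 316 cells led by Spp1, Tm4sf4, Krt8 and Epcam. The other classes were endothelial-like (1793 cells), B or plasma-like (995), T or NK-like (649), acinar-like (579), erythroid-like (93) and pericyte or smooth muscle-like (33). Levels are given as CPM, the gene's UMIs scaled to a sum of 1000000 UMIs over the cells summed. They are not corrected for gene length and are compared between cells, not between genes.

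The C1q genes C1qc and C1qb are neighbours on chromosome 4, and the promoters of these 2 genes are shown because their transcripts, with those of C1qa, appeared in the same cells. RefSeq held promoters of 4 of the 7 genes (C1qb, C1qc, C3 and Cd55, build GRCm38.p6), and C1qa, C4b and Serping1 are named only. The 250 bases before the transcript start are printed 5′ to 3′ on the gene's strand, with capitals for the purine-rich ETS core GAGGAA and the Maf half-site TGCTGA on either strand. The C1qb promoter lies at chr4:136886201-136886450 and the C1qc promoter at chr4:136892915-136893164, both on the minus strand.
C1qb: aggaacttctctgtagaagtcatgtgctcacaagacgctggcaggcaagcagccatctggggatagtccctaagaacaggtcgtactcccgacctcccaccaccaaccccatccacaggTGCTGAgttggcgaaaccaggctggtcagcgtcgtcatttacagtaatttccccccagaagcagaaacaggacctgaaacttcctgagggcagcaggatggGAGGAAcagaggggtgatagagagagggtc
C1qc: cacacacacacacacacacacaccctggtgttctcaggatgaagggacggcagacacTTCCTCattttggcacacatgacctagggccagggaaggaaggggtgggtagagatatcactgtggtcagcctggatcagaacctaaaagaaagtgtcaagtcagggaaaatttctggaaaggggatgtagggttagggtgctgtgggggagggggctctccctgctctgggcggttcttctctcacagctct
GAGGAA occurred once in each, on the gene's strand 30 to 25 bases before the C1qb start and on the opposite strand 193 to 188 bases before the C1qc start. It occurred in 0 of the C3 and Cd55 windows and in 23.3% of all 32851 RefSeq mouse promoters of this length. TGCTGA occurred once in C1qb, 131 to 126 bases before the start, once in C3, 2 times in Cd55 and 0 times in C1qc, against 16.1% of all promoters. The interferon-type GAS letters TTCNNNGAA were in 0 of these 4 windows and in 7.02% of all promoters. The motifs do not overlap, and a match describes the letters only.

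The 3 C1q genes were transcribed in macrophage/monocyte-like cells. Summed over the class they stood at 1893 (C1qa), 2024 (C1qb) and 1273 (C1qc) CPM, and the class held 97.3%, 98.1% and 98.6% of each gene's UMIs in the kept cells. By library, C1qa stood at 1520.5 CPM in EYFP positive cerulein, 4663 and 1803 in EYFP positive homeostasis runs 1 and 2, 841 in EYFP negative cerulein, and 529 and 2711 in EYFP negative homeostasis runs 1 and 2. C1qb in the same order stood at 2038, 4282 and 2298 in EYFP positive and 1152, 716 and 2629.8 in EYFP negative libraries. C1qc followed with 1223, 3092 and 1438 in EYFP positive and 681, 303 and 1716 in EYFP negative libraries. EYFP negative homeostasis run 1 was the lowest library for each of the 3 genes and EYFP positive homeostasis run 1, with 9 macrophage/monocyte-like cells, the highest, so that both extremes came from homeostasis. Over the 4 libraries with at least 10 such cells the levels averaged 1471 ± 989 (C1qa), 1699 ± 911 (C1qb) and 1034 ± 655 (C1qc) CPM (SD, n = 4).

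**Figure D1:**
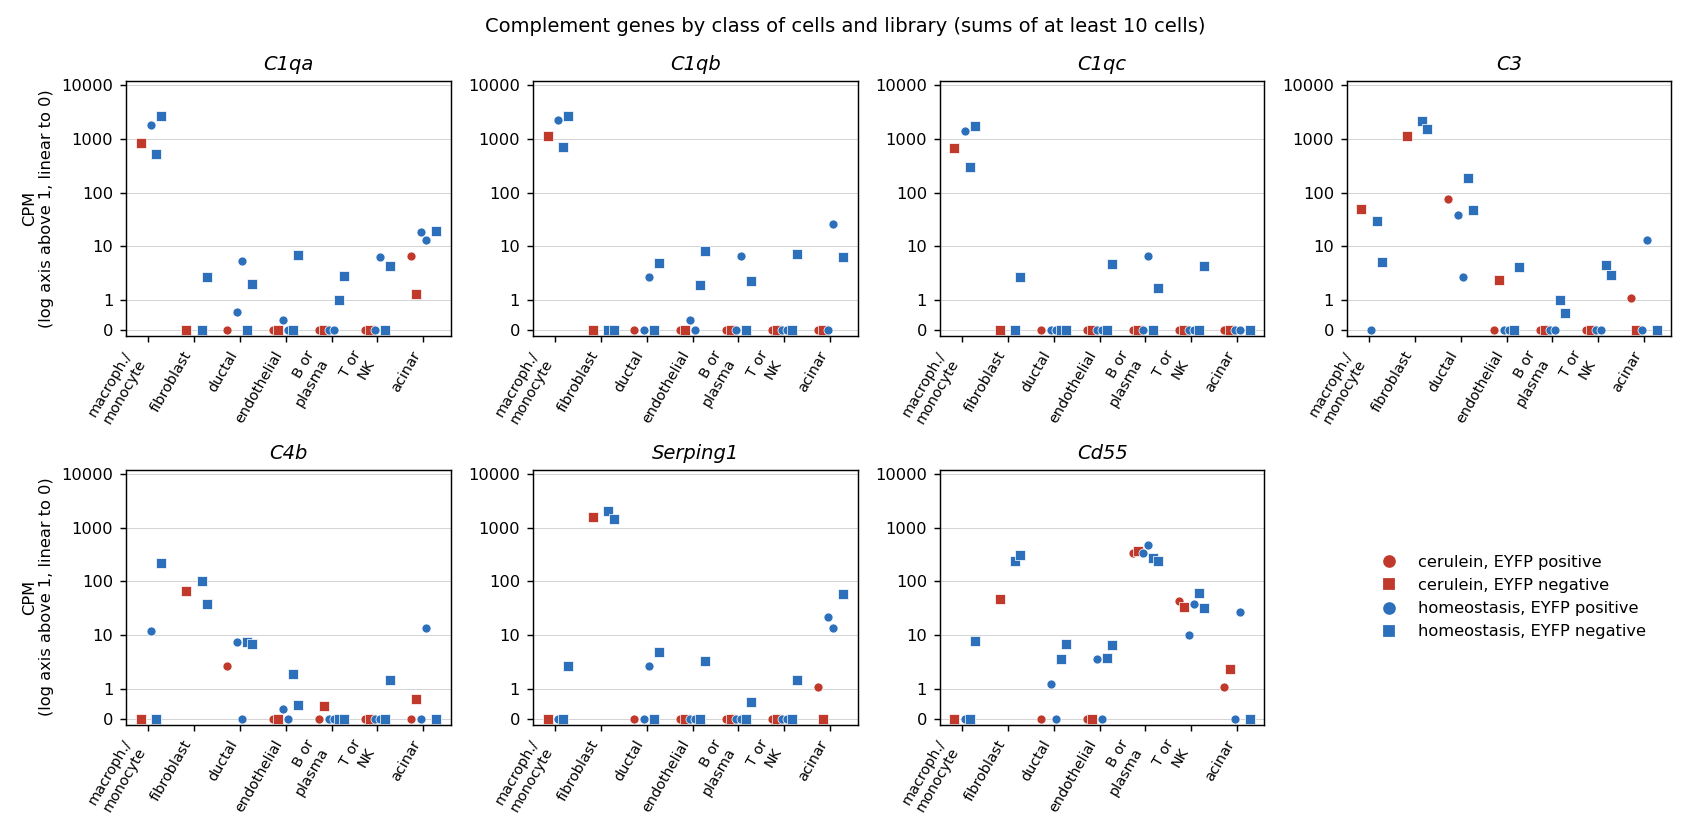
CPM of each of the 7 genes (vertical axis, logarithmic above 1 and linear below) in each class of cells (horizontal axis), 1 point per library with at least 10 cells of the class. Red points are cerulein and blue points homeostasis libraries, with circles for EYFP positive and squares for EYFP negative. The C1q genes stand highest in macrophage/monocyte-like and C3 and Serping1 in fibroblast-like cells. Averaged over libraries, Cd55 stands highest in B or plasma-like cells, whereas C4b is split between macrophage/monocyte-like and fibroblast-like cells.

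Of the 164 macrophage/monocyte-like cells, 39.6% had a C1qa UMI (exact 95% interval 32.1 to 47.6%), 39.0% a C1qb UMI and 37.8% a C1qc UMI, at a median of 3786.5 UMIs per cell. The 139 cells with at least 1000 UMIs were each thinned to 1000, and among them the shares were 38.1%, 36.7% and 34.5%. Here and below, thinned shares leave out cells with fewer UMIs, 25 of the 164 in this class. In B or plasma-like cells, which lack C1q and had a median of 4892 UMIs, the shares without thinning were 0.603%, 0.503% and 0.402%. The 3 genes went together. C1q UMIs of any kind were in 71 cells, and 57 of these had all 3 genes. The 49 cells with at least 10 C1q UMIs gave 98.3% of the class's 5140 C1q UMIs, and 93 cells had 0. Intervals here and below cover counting error only.

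Outside the class 109 C1q UMIs remained. Acinar-like cells held 20 UMIs of C1qa, 3 of C1qb and 0 of C1qc, of which 13 of C1qa lay in the cluster led by Pla2g1b and 2 cells held 5 C1qa UMIs each. Endothelial-like cells held 16, 20 and 10 UMIs of the 3 genes, ductal-like cells 5, 6 and 0, and fibroblast-like cells 1, 0 and 1.

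Classes were compared with edgeR's quasi-likelihood test with Benjamini-Hochberg adjustment on sums per library of at least 10 cells, over 9476 genes that include all 7. At an adjusted p under 0.05, 40.6% of all genes were called between macrophage/monocyte-like and fibroblast-like cells (19.1% higher and 21.5% lower in macrophage/monocyte-like cells), 47.7% between macrophage/monocyte-like and ductal-like cells (23.1% higher, 24.5% lower), and 42.8% between macrophage/monocyte-like and endothelial-like cells (20.7% higher, 22.2% lower). Of the 7 genes, 3 were higher and 3 lower in macrophage/monocyte-like than fibroblast-like cells, 4 higher and 1 lower than in ductal-like cells, and 5 higher and 0 lower than in endothelial-like cells. Here and below SE is the size of the log2 fold change divided by the square root of the test's F statistic. It was not fitted directly and can understate the error where a class held few UMIs. For C1qa the log2 fold change of macrophage/monocyte-like over ductal-like cells was 9.93 ± 0.40 (SE, adjusted p = 9.1e-21), and over endothelial-like cells 9.25 ± 0.34 (adjusted p = 1.1e-21). For C1qb these were 9.73 ± 0.38 (adjusted p = 1.7e-20) and 8.91 ± 0.32 (adjusted p = 1.4e-21), and for C1qc over endothelial-like cells 9.16 ± 0.34 (adjusted p = 6.1e-21). Fibroblast-like cells had 0 UMIs of C1qb, which puts macrophage/monocyte-like cells at least 581-fold higher, and ductal-like cells 0 of C1qc, which puts them at least 1598-fold higher, both against a floor of 3 counts over the class. With 1 UMI of C1qa in fibroblast-like cells the ratio of macrophage/monocyte-like to fibroblast-like cells was 1631, with a counting interval of 292 to 64444. C1qc, also with 1 UMI there, was called by edgeR but not by DESeq2 (9.35, adjusted p = 0.13).

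Within the macrophage/monocyte-like class C1q marked a minority of cells. The class was clustered again, without complement genes, into 6 sub-clusters. The sub-cluster led by Folr2, Pf4, Lyve1, Mrc1 and Cd163 (20 cells), a tissue macrophage-like set, had 6605 CPM of C1qa, 5966 of C1qb and 4809 of C1qc. A sub-cluster with Ms4a7 among its leading genes (52 cells) had 4701, 5240.0 and 3071. C1qb was also among its 10 leading genes. The marker lists named the sub-cluster tissue macrophage, from 1 leading gene, Ms4a7. That name is not used here, because 5 of the sub-cluster's 10 leading genes were acinar enzymes. Its 20 acinar markers, 19 of them with a UMI, summed to 8568 CPM, against 1335 to 4104 in the other 5 sub-clusters and 622104 in acinar-like cells. Their part in the levels was not tested.

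The other 4 sub-clusters stood far lower. Non-classical monocyte-like cells led by Ear2, Ace and Gngt2 (29 cells) had 169, 301 and 92.4 CPM of C1qa, C1qb and C1qc. A sub-cluster led by Tbc1d4 (28 cells) had 23.8, 29.8 and 11.9. Migratory dendritic-like cells led by Ccl5, Fscn1 and Ccr7 (27 cells) had 1 UMI of C1qb and 0 of C1qa and C1qc, and the 8 cells led by S100a9 and S100a8 had 0 of all 3. The Ms4a7 and Folr2 sub-clusters together held 72 of the 164 cells (43.9%) and 97.5%, 96.0% and 98.0% of the class's UMIs of C1qa, C1qb and C1qc. C1qa stood at 5145 CPM in these cells against 72.5 in the rest of the class, C1qb at 5409 against 128, and C1qc at 3477 against 39.4.

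The share of Ms4a7 and Folr2 cells among macrophage/monocyte-like cells was 62.5% (5 of 8) in EYFP positive cerulein, 44.4% (4 of 9) and 33.3% (4 of 12) in EYFP positive homeostasis runs 1 and 2, 40.9% (9 of 22) in EYFP negative cerulein, and 18.2% (6 of 33) and 55.0% (44 of 80) in EYFP negative homeostasis runs 1 and 2. Within these cells C1qa stood at 3262 CPM in EYFP positive cerulein, 8996 and 5341 in EYFP positive homeostasis, 3158 in EYFP negative cerulein, and 2724 and 5778 in EYFP negative homeostasis. The lowest and the highest library were again the 2 homeostasis libraries of run 1. C1qb ranged from 3146 to 8262 and C1qc from 1719 to 5965 CPM over the 6 libraries, with the same extremes. Over all cells of the class, the share of C1qa in the C1q UMIs of a library ranged from 31.5% to 38.7%, that of C1qb from 35.6% to 46.3% and that of C1qc from 19.6% to 26.0%.

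**Figure D2:**
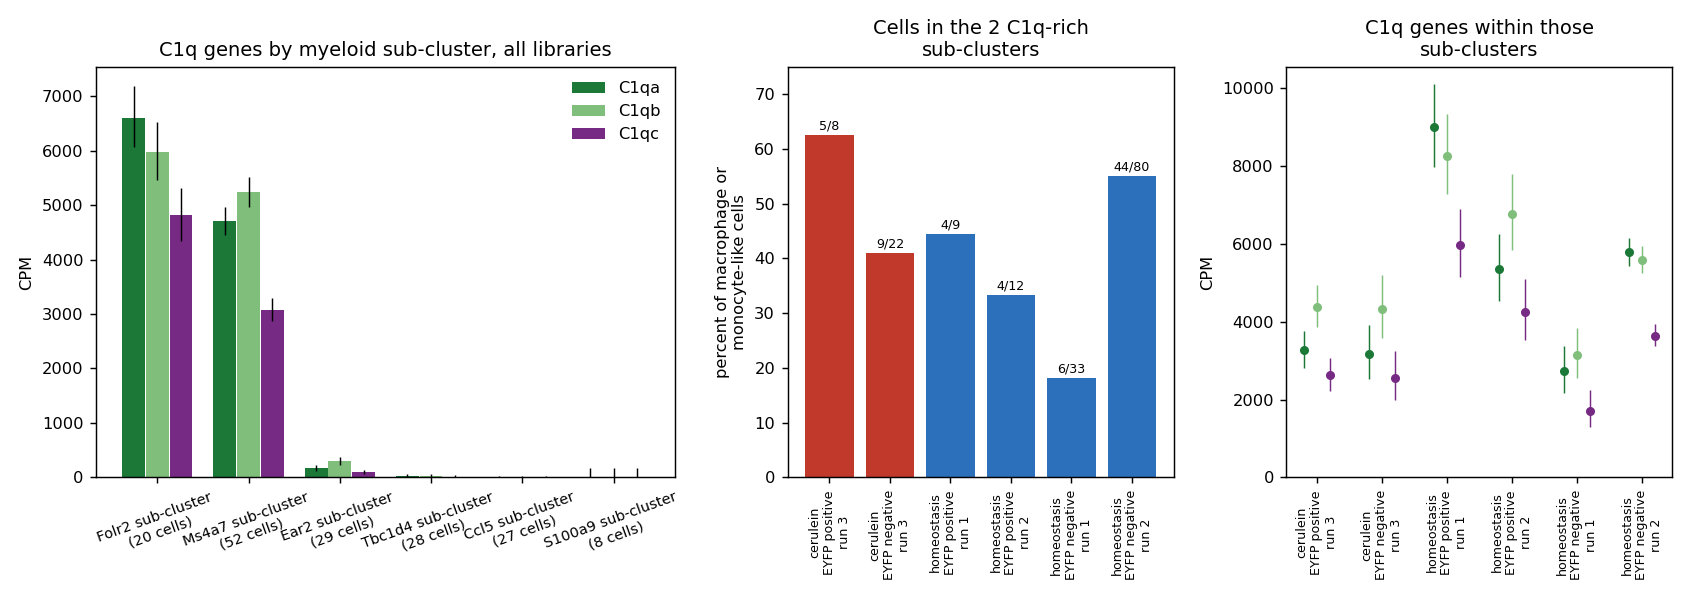
Left, CPM of C1qa, C1qb and C1qc in the 6 sub-clusters of macrophage/monocyte-like cells, with counting intervals. Middle, percent of macrophage/monocyte-like cells of each library that lay in the Ms4a7 or Folr2 sub-clusters, from 18.2% to 62.5%. Right, CPM of the 3 genes within those cells by library, where C1qa ranged from 2724 to 8996.

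C4b, the component cleaved by active C1s, was the one gene of the 7 without a single main source. Macrophage/monocyte-like cells held 52.6% of its 196 UMIs, fibroblast-like cells 32.1% and ductal-like cells 22 UMIs, whereas endothelial-like cells held 3. In macrophage/monocyte-like cells C4b stood at 62.7 CPM in EYFP positive cerulein, 182 and 11.8 in EYFP positive homeostasis runs 1 and 2, 0 in EYFP negative cerulein, and 0 and 217 in EYFP negative homeostasis. EYFP negative homeostasis run 2 held 83 of the 103 UMIs, and 39 of the 103 came from 1 cell. Among these cells C4b lay where C1q lay, with 99.0% of the class's C4b UMIs in the Ms4a7 and Folr2 sub-clusters. It stood at 663 CPM in the Folr2 and 172 in the Ms4a7 sub-cluster, against 1 UMI in the other 92 cells.

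In fibroblast-like cells C4b stood at 126 CPM in EYFP positive cerulein, 338 and 45.2 in EYFP positive homeostasis, 65.4 in EYFP negative cerulein, and 99.8 and 37.2 in EYFP negative homeostasis, so every library had some. These values rest on 63 UMIs in 20 cells, with 1 UMI in EYFP positive homeostasis run 2. A single cell gave 4 of 15 UMIs in EYFP negative cerulein, and 10 of 15 and 8 of 14 in EYFP negative homeostasis runs 1 and 2. A C4b UMI was found in 8.54% of macrophage/monocyte-like and 12.0% of fibroblast-like cells, against 1 of 995 B or plasma-like cells. The difference between macrophage/monocyte-like and fibroblast-like cells was 0.56 ± 0.60 on the log2 scale (adjusted p = 0.49, edgeR). Without EYFP negative homeostasis run 2 it was -4.75 (adjusted p = 0.0028), and without EYFP negative homeostasis run 1 it was 1.55 (adjusted p = 0.030), so that the order of these classes rested on single libraries. C4b was higher in macrophage/monocyte-like than ductal-like cells by 4.38 ± 0.76 (adjusted p = 7.8e-06, edgeR) and than endothelial-like cells by 7.65 ± 0.85 (adjusted p = 1.0e-09, edgeR). Without EYFP negative homeostasis run 2 these were -0.57 (adjusted p = 0.85) and 2.53 (adjusted p = 0.41). In fibroblast-like cells C4b was higher than in ductal-like cells by 3.82 ± 0.85 (adjusted p = 0.00040, edgeR) and than in endothelial-like cells by 7.09 ± 0.96 (adjusted p = 9.5e-08, edgeR).

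C3 was transcribed mainly by fibroblast-like cells, which held 84.3% of its 1541 UMIs at 1508 CPM (counting interval 1427 to 1593). By library it stood at 588 CPM in EYFP positive cerulein and 2339 and 1266 in EYFP positive homeostasis, from 6, 6 and 5 cells. In the EYFP negative libraries it stood at 1126 after cerulein and 2129 and 1546 in homeostasis, an average of 1600 ± 504 (SD, n = 3). The cerulein library was the lower one in both EYFP fractions. A C3 UMI was in 61.1% of fibroblast-like cells (45.1% after thinning) at a median of 4088 UMIs per cell, against 0.201% of B or plasma-like and 0.462% of T or NK-like cells at medians of 4892 and 5965 UMIs per cell. Pericyte or smooth muscle-like cells had 0 C3 UMIs, which puts fibroblast-like cells at least 42.4-fold higher.

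Between fibroblast-like and ductal-like cells 38% of all genes were called (20.1% higher and 17.9% lower in fibroblast-like cells), and between fibroblast-like and endothelial-like cells 35.6% (18.6% higher, 16.9% lower). Of the 7 genes 4 were higher in fibroblast-like than in ductal-like cells, and 4 were higher and 1 lower than in endothelial-like cells. C3 was higher in fibroblast-like than ductal-like cells by 4.30 ± 0.37 on the log2 scale (adjusted p = 3.5e-12, edgeR) and than endothelial-like cells by 9.34 ± 0.40 (adjusted p = 1.1e-20, edgeR). In macrophage/monocyte-like cells it was lower than in fibroblast-like cells by a log2 fold change of -6.10 ± 0.42 (adjusted p = 7.6e-15, edgeR). The one lower gene, C1qb, had 0 UMIs in fibroblast-like and 20 in endothelial-like cells (adjusted p = 0.048, edgeR), a difference too near the floor for a fold, and the call was lost under 10 alternatives.

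C3 differed between sub-clusters of fibroblast-like cells. A sub-cluster of 33 cells with Pi16, a marker of fibroblasts of the adventitia, had 3316 CPM of C3 against 951 in the other 134 cells, and gave 51.8% of the class's C3 UMIs. Of the EYFP negative libraries, the cerulein library had 0 Pi16 cells of 38, which allows a share of up to 7.89%, while homeostasis runs 1 and 2 had 3 of 26 and 26 of 86. Of the EYFP positive libraries, cerulein had 1 of 6 cells and homeostasis runs 1 and 2 had 3 of 6 and 0 of 5, which allows up to 60%. The other fibroblast-like cells included a sub-cluster of 53 cells led by Hbb-bs, Hba-a1 and mitochondrial genes. It held 7 of the 38 other cells in EYFP negative cerulein, and 2 of 23 and 40 of 60 in EYFP negative homeostasis runs 1 and 2. The part of this makeup in the levels was not tested. In the other fibroblast-like cells C3 stood at 1126 CPM in EYFP negative cerulein, between 1293 and 711 in EYFP negative homeostasis runs 1 and 2. In the EYFP positive libraries these other cells had 265 CPM after cerulein (5 cells, counting interval 137 to 463), below 1245 (3 cells, 725 to 1993) and 1266 (5 cells, 842 to 1830) in homeostasis runs 1 and 2. In Pi16 cells it stood at 4342 and 2996 in EYFP negative homeostasis runs 1 and 2.

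**Figure D3:**
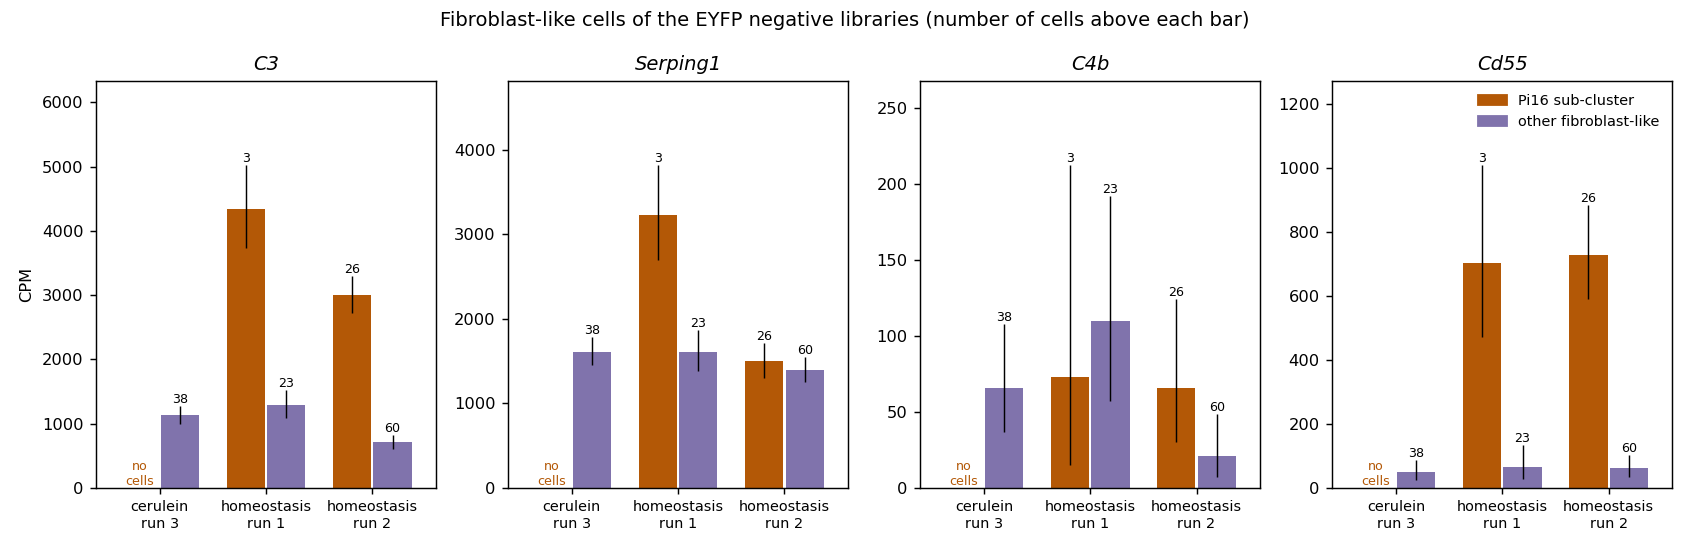
CPM of C3, Serping1, C4b and Cd55 in Pi16 cells and in other fibroblast-like cells of the 3 EYFP negative libraries (cerulein run 3, homeostasis runs 1 and 2). Numbers above the bars are cells and error bars are counting intervals. C3 and Cd55 stand higher in Pi16 cells, of which the cerulein library held 0, while Cd55 in the other cells lies between 48.0 and 64.2 in all 3 libraries.

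Ductal-like cells were the second source of C3, with 194 UMIs (12.6%) at 51.5 CPM. By library C3 stood at 77.8 CPM in EYFP positive cerulein, 38.7 and 2.66 in EYFP positive homeostasis, 0 in EYFP negative cerulein (4 cells), and 189 and 48.0 in EYFP negative homeostasis. The highest of these values came from 1 cell, which held 43 of the 52 C3 UMIs of EYFP negative homeostasis run 1 (82.7%). Ductal-like cells with a C3 UMI were 14.2% of the class, and 4.19% after thinning, at a median of 10268.5 UMIs per cell. Between ductal-like and endothelial-like cells, where 59.7% of all genes were called (30% higher and 29.7% lower in ductal-like cells), 2 of the 7 genes were higher and 1 lower. C3 was higher in ductal-like cells by 5.04 ± 0.45 on the log2 scale (adjusted p = 1.7e-12, edgeR). C4b was higher by 3.27 ± 1.03 (adjusted p = 0.0066, edgeR), but not with DESeq2 (2.12, adjusted p = 0.17) or without EYFP positive homeostasis run 1 (2.76, adjusted p = 0.075). C1qc was the lower gene, with 0 UMIs in ductal-like and 10 in endothelial-like cells, at least 1.95-fold lower, and this call was lost with DESeq2 (-1.12 on the log2 scale) and without EYFP negative homeostasis run 2 (-0.18). C1qa, with 5 and 16 UMIs in these classes, was not called, but passed as lower in ductal-like cells at resolution 0.5 (-1.83, adjusted p = 0.014) and with complement genes clustered (-1.84, adjusted p = 0.014).

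**Figure D4:**
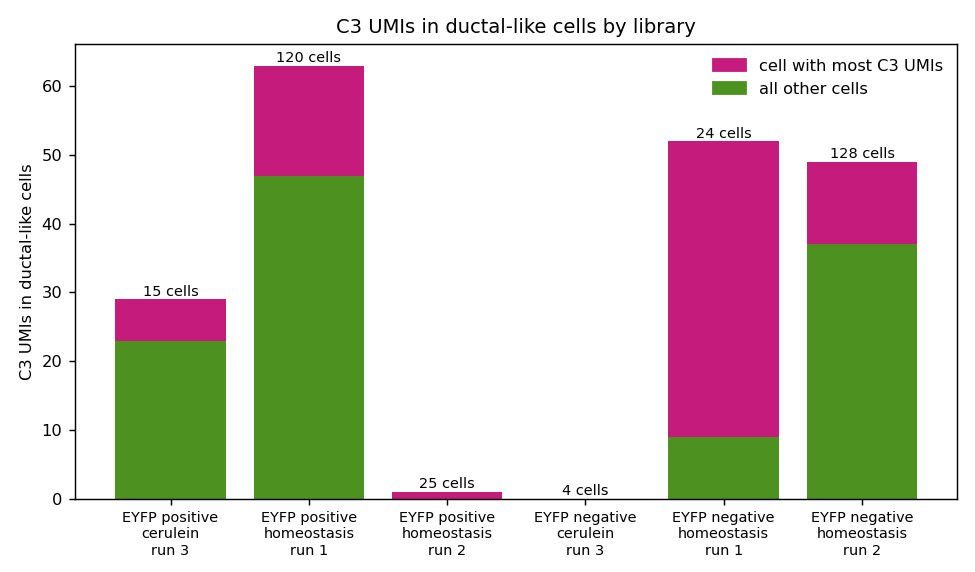
C3 UMIs in the ductal-like cells of each library (vertical axis, UMI count), stacked as the cell with most UMIs and all other cells. In EYFP negative homeostasis run 1 a single cell gives 43 of 52 UMIs, whereas in EYFP positive cerulein the top cell gives 6 of 29.

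Macrophage/monocyte-like cells held 30 C3 UMIs (30.3 CPM), 12 of them in 1 cell. The level was 102 in EYFP positive cerulein, 49.6 and 0 in EYFP positive homeostasis, 50.1 in EYFP negative cerulein, and 29.8 and 5.22 in EYFP negative homeostasis. Non-classical monocyte-like cells held 24 of the 30. Macrophage/monocyte-like cells were below ductal-like cells by a log2 fold change of -1.80 ± 0.53 (adjusted p = 0.0050, edgeR). This call was lost with DESeq2 (adjusted p = 0.12), with sums of at least 5 cells (-0.55, adjusted p = 0.45), with the smaller copies of shared barcodes kept (-1.30, adjusted p = 0.064) and without EYFP negative homeostasis run 1 (-1.41, adjusted p = 0.13). Macrophage/monocyte-like cells were above endothelial-like cells, with 10 C3 UMIs, by 3.24 ± 0.77 (adjusted p = 0.00068, edgeR). Without EYFP negative homeostasis run 2 the difference was 5.31.

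Serping1, the C1 inhibitor gene, was found in most fibroblast-like cells. The class held 96.5% of its 1438 UMIs at 1611 CPM. By library it stood at 2330.0 CPM in EYFP positive cerulein, 1099 and 905 in EYFP positive homeostasis, 1609.9 in EYFP negative cerulein, and 2056 and 1432 in EYFP negative homeostasis. The EYFP negative libraries averaged 1699 ± 322 (SD, n = 3), with the cerulein library between the 2 homeostasis libraries. A Serping1 UMI was in 79.6% of fibroblast-like cells (62.7% after thinning), against 0.101% of B or plasma-like cells. Pi16 cells had 1867 and other fibroblast-like cells 1531 CPM.

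Pericyte or smooth muscle-like cells came next for Serping1, with 17 UMIs from 33 cells (202 CPM) and a UMI in 39.4% of cells. Acinar-like cells held 18 UMIs (3.96 CPM), 17 of them in the cluster led by Pla2g1b. In edgeR's quasi-likelihood test, Serping1 in fibroblast-like cells was above ductal-like cells by 8.91 ± 0.45 (adjusted p = 5.6e-18) and above endothelial-like cells by 9.58 ± 0.37 (adjusted p = 4.5e-21) on the log2 scale. Macrophage/monocyte-like cells, with 1 Serping1 UMI, were below fibroblast-like cells by a log2 fold change of -9.95 ± 0.50 (adjusted p = 7.6e-18, edgeR). These 3 differences set fibroblast-like cells against 1 to 7 UMIs. Without EYFP negative homeostasis run 2 they were 12.46, 13.18 and -14.29.

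Cd55, the decay-accelerating factor gene, had its main source outside the 4 classes above. B or plasma-like cells held 83% of its 2202 UMIs, at 331 CPM in EYFP positive cerulein, 334 and 474 in EYFP positive homeostasis, 371 in EYFP negative cerulein, and 271 and 242 in EYFP negative homeostasis. These 6 libraries averaged 337 ± 81.6 (SD, n = 6). With the fractions pooled, the cerulein libraries lay within the range of the homeostasis libraries. Within fractions, EYFP negative cerulein lay above both of its homeostasis libraries and EYFP positive cerulein just below both of its own. The 2 large B-like clusters had 332 (415 cells) and 411 (539 cells) CPM, against 22.2 in plasma-like cells (27 cells) and 23.1 in cycling cells (14 cells). Of the class's cells, the cluster of 539 held 380 of 430 in EYFP negative cerulein, and 12 of 108 and 87 of 353 in EYFP negative homeostasis runs 1 and 2. In EYFP positive libraries it held 33 of 37 after cerulein, and 3 of 29 and 24 of 38 in homeostasis. The part of this makeup in the levels was not tested. A Cd55 UMI was in 69.7% of B or plasma-like cells and in 30.7% after thinning, compared with 1.12% of endothelial-like and 1.27% of ductal-like cells at medians of 3213 and 10268.5 UMIs per cell.

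Fibroblast-like cells were the second source of Cd55, at 126 CPM in EYFP positive cerulein, 395 and 181 in EYFP positive homeostasis, 48.0 in EYFP negative cerulein, and 239.5 and 305 in EYFP negative homeostasis. Both cerulein libraries were below both homeostasis libraries of their fraction, but on few UMIs. The EYFP positive values came from 6 UMIs after cerulein and 14 and 4 in homeostasis runs 1 and 2. EYFP negative cerulein had 11 UMIs, and in EYFP negative homeostasis run 1 a single cell held 24 of 36. The transcripts lay in Pi16 cells, which had 709 CPM and 77.4% of the class's Cd55 UMIs, against 63.8 in the other fibroblast-like cells. T or NK-like cells had 34.7 CPM, endothelial-like cells 4.2 and macrophage/monocyte-like cells 4 UMIs.

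In a fit of 6 classes, which called 51.1% of genes between fibroblast-like and B or plasma-like cells, Cd55 was lower in fibroblast-like cells by a log2 fold change of -1.20 ± 0.33 (adjusted p = 0.0027, edgeR). The order was not the same in every library. In EYFP negative homeostasis run 2 fibroblast-like cells (305 CPM) stood above B or plasma-like cells (242 CPM). The widest gap lay in EYFP negative cerulein, where fibroblast-like cells stood at 48.0 CPM. This fit had no alternatives, so whether the difference rested on a single library was not tested. B or plasma-like cells were above T or NK-like cells by 3.36 ± 0.28 (adjusted p = 4.3e-12, edgeR; 24.5% of genes called) and above endothelial-like cells by 6.74 ± 0.37 (adjusted p = 2.0e-17, edgeR; 58.8% called). In the fit of 4 classes fibroblast-like cells were above ductal-like cells by 6.14 ± 0.42 (adjusted p = 2.6e-14, edgeR) and above endothelial-like cells by 5.64 ± 0.36 (adjusted p = 2.6e-15, edgeR). Macrophage/monocyte-like cells were below fibroblast-like cells by a log2 fold change of -5.62 ± 0.52 (adjusted p = 6.9e-11, edgeR), and by -9.41 without EYFP negative homeostasis run 2. None of the 7 genes had endothelial-like cells as its main source, and those cells held 3 to 27 UMIs of each.

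After cerulein the C1q genes were not called in macrophage/monocyte-like cells. The fit used the 1 cerulein and 3 homeostasis libraries with at least 10 such cells. Only 1 of these was EYFP positive, so with EYFP fraction in the model the fold changes of cerulein rested on the EYFP negative libraries. The fit had 1 residual degree of freedom. It called 65 of 3714 genes (1.75%), and 0 of the 4 genes tested from this group were called by edgeR or by DESeq2, with 0 at an unadjusted p under 0.05. The log2 fold changes of cerulein over homeostasis were -1.24 ± 0.73 for C1qa (adjusted p = 0.54, edgeR), -0.83 ± 0.61 for C1qb (adjusted p = 0.64) and -0.87 ± 0.76 for C1qc (adjusted p = 0.71). C4b had 0 UMIs in the cerulein library of the fit and 0 in one of the homeostasis libraries (adjusted p = 0.41, edgeR). With DESeq2's size factors in edgeR, C1qa passed at -1.16 (adjusted p = 0.018) and C4b at an adjusted p of 0.0013, and with no filter on low counts C1qa passed at -1.25 (adjusted p = 0.025).

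In fibroblast-like cells 1 of the 4 genes tested changed after cerulein, in 3 EYFP negative libraries with 1 residual degree of freedom and 76 of 5214 genes called (1.46%, with 1.15% lower). Cd55 was lower after cerulein by a log2 fold change of -2.61 ± 0.60 (adjusted p = 0.0024, edgeR), and it missed the threshold with DESeq2 (-2.61, adjusted p = 0.12) and with doublets kept (-2.74, adjusted p = 0.82). Without Pi16 cells, which the cerulein library lacked, the difference was -0.45 (adjusted p = 1.0). In those other cells Cd55 stood at 48.0 CPM after cerulein and at 64.2 and 62.8 in homeostasis runs 1 and 2. The sub-cluster makeup of those cells differed between libraries, as given above. Over all fibroblast-like cells of homeostasis run 1, a single cell held 24 of the 36 Cd55 UMIs. C3 differed by -0.77 ± 0.53 (adjusted p = 0.96, edgeR) and by 0.17 without Pi16 cells. Serping1 differed by -0.17 ± 0.52 (adjusted p = 0.98, edgeR) and C4b by 0.05 ± 0.56 (adjusted p = 0.99, edgeR).

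In ductal-like cells, with 5 of 7659 genes called (0.0653%), C3 was not called at 1.49 ± 0.55 for cerulein over homeostasis (adjusted p = 0.99, edgeR; unadjusted p = 0.0082). Without EYFP positive homeostasis run 1 it was 4.68 (adjusted p = 0.00034). Endothelial-like cells gave 4 called genes of 7121 (0.0562%), and 0 of the 7 genes held enough UMIs to be tested. In B or plasma-like cells 116 of 6560 genes were called (1.77%), but 1 without EYFP negative cerulein, 18 and 41 without EYFP negative homeostasis runs 2 and 1, and 332 without EYFP positive homeostasis run 2. Cd55 had a log2 fold change of 0.01 ± 0.25 there (adjusted p = 1.0, edgeR).

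EYFP positive and EYFP negative cells were compared in the same classes. In macrophage/monocyte-like cells 11 of 3714 genes were called (0.296%) and 0 of 4 complement genes, with 0 at an unadjusted p under 0.05 and 0 by DESeq2. The log2 fold changes of EYFP positive over EYFP negative were 0.05 ± 0.68 for C1qa (adjusted p = 0.99, edgeR), 0.36 ± 0.58 for C1qb (adjusted p = 0.88) and 0.40 ± 0.72 for C1qc (adjusted p = 0.90), from 1 EYFP positive library of 12 cells. In B or plasma-like cells (0.0762% called) Cd55 differed by 0.28 ± 0.24 (adjusted p = 1.0, edgeR). Fibroblast-like cells could be compared only with sums of at least 5 cells, where 6 of 2154 genes were called and 0 of the 4 complement genes tested. Their log2 fold changes were 1.45 ± 0.58 for C4b (adjusted p = 0.66, edgeR), 0.37 for Cd55, -0.38 for Serping1 and -0.36 for C3. In endothelial-like cells (0.0702% called) none of the 7 genes was tested.

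In ductal-like cells C3 was the 1 complement gene called between the fractions, among 29 genes (0.379%). It was lower in EYFP positive cells by a log2 fold change of -1.96 ± 0.43 (adjusted p = 0.0078, edgeR). Without the cell with 43 UMIs the difference was -0.76 ± 0.41 (adjusted p = 1.0), and without its library, EYFP negative homeostasis run 1, -0.95 (adjusted p = 1.0). It was also lost with DESeq2 (-2.47, adjusted p = 1.0) and without EYFP positive cerulein (-1.94, adjusted p = 0.052), and at -1.22 (adjusted p = 1.0) with the smaller copies of shared barcodes kept. Without EYFP positive homeostasis run 1 the difference was -5.12, and with run as a block -2.45 (adjusted p = 2.8e-10).

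The rest of the complement system was read in a list of 54 genes that includes the 7, of which 45 had a UMI and 17 others had at least 100. Of the C1q-associated proteases, C1ra stood at 526 CPM in fibroblast-like and 107 in pericyte or smooth muscle-like cells, and C1s1 at 979 and 664. These are the enzymes that Serping1's product inactivates. Clu, a soluble regulator of the terminal pathway, stood at 7607 in ductal-like and 325 in acinar-like cells. Vtn, another terminal regulator, stood at 984 in pericyte or smooth muscle-like and 197 in fibroblast-like cells.

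Receptors lay elsewhere. Cr2, the B cell receptor for C3 fragments, had 97.2% of its UMIs in B or plasma-like cells, at 229.9 CPM. In macrophage/monocyte-like cells C3ar1 and C5ar1, receptors of the C3a and C5a peptides, stood at 115 and 99.98, the integrin chains Itgam and Itgax at 152 and 109, and Cfp, the properdin gene, at 165. Itgb2, their shared beta chain, stood at 219.7 in T or NK-like and 192 in macrophage/monocyte-like cells. Colec12, a scavenger collectin, stood at 345 in fibroblast-like cells. Endothelial-like cells had Cd93 at 549, the regulator Cr1l at 192 and Cd59a, an inhibitor of the membrane attack complex, at 47.0 CPM. Among the genes with 0 UMIs were Cfd, Mbl2, Fcnb and Hc, the C5 gene.

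Of the 47 listed genes outside the 7, 18 were tested between classes. In macrophage/monocyte-like against fibroblast-like cells 7 were higher and 7 lower, with a median log2 fold change of -0.75 against -0.11 over all genes. The higher genes of lowest p were Itgb2 (10.43), Itgam (9.99) and C3ar1 (9.27), and the lower ones C1s1 (-12.87), C1ra (-6.80) and Vtn (-6.72). In macrophage/monocyte-like against ductal-like cells 9 were higher and 3 lower (median 3.1 against -0.13), with Clu lowest at -7.92. In fibroblast-like against endothelial-like cells 7 were higher and 1 lower (median 1.42 against -0.04), led by C1s1 (10.05), C1ra (6.57) and Colec12 (5.44), with Cd93 lower (-8.61). After cerulein 0 of 5 listed genes were called in endothelial-like cells. The fits of macrophage/monocyte-like, ductal-like and fibroblast-like cells had 1 cerulein library each. In fibroblast-like cells Clu was lower after cerulein by a log2 fold change of -3.90, and alternatives for Clu are not given. Clu stood at 7607 CPM in ductal-like cells. These numbered 4 in EYFP negative cerulein, and 24 and 128 in EYFP negative homeostasis runs 1 and 2. Their part was not tested.

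Genes with the most similar pattern were ranked by Pearson's r of log2(CPM + 10) over 34 sums of at least 20 cells from 8 classes, which share libraries and class totals. Nearest to C1qa were Clec4a2 (0.97), C5ar1 (0.96) and Adgre1 (0.96), nearest to C1qb Pla2g7 (0.98), Csf1r (0.97) and Lyz1 (0.97), and nearest to C1qc Adgre1 (0.99), Mrc1 (0.99) and C5ar1 (0.99). C3 was nearest to Agtr1a (0.95), C1ra (0.95) and Abca8b (0.95), and Serping1 to Lgi2 (0.98), Ndn (0.98) and Vcan (0.98). C4b had a looser match with Abca9 (0.86), Adap2 (0.83) and Tpm2 (0.83), as did Cd55 with Aff3 (0.85), B3gnt5 (0.84) and Scd1 (0.84).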

How the data were processed

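The deposited files held raw counts, whole UMIs per gene and barcode. The submitters' processing notes name Cell Ranger 2.1.0 and GRCh38. Per the file headers the software version was 3.1.0, and every gene identifier is a mouse one. Which mouse build was used is not given in the sources. The 7 genes, the complement list and the marker lists were chosen with earlier results of these data known. A barcode was kept if it had 200 genes or more and no more than 20% of its UMIs from mitochondrial genes (2977 and 676 fell out). Scrublet with 20 components called 41 doublets, which were removed, as were 99 smaller copies of barcodes shared within a run. Cells were scaled to 10000 UMIs and clustered in scanpy 1.11.5 (2000 variable genes, 30 components, 15 neighbours, Leiden resolution 1.0, igraph 0.11.9) into 21 clusters without the 54 complement genes. Macrophage/monocyte-like and fibroblast-like cells were clustered again at resolution 0.5 (1000 variable genes, 15 components). Clusters were named from marker lists, with at least 3 detected markers. The other tools were numpy 2.4.6, pandas 2.3.3 and scipy 1.17.1 under Python 3.11.15, with matplotlib 3.10.9 for figures.

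Counts were summed per library and class where at least 10 cells remained. The sums were tested with edgeR 4.0.16 under R 4.3.3 (TMM, filterByExpr, quasi-likelihood test, Benjamini-Hochberg adjustment over all genes tested, threshold 0.05), with DESeq2 1.42.0 as an alternative. Cerulein was tested with EYFP fraction in the model and EYFP with condition, where both remained. Where a group had 1 library, its spread was taken from the other groups. The scripts were tested on simulated counts. The text names the 7 genes where they held at least 10 UMIs, other listed genes with at least 100 UMIs, up to 3 listed genes per direction of lowest p past the threshold, and the 3 genes nearest in pattern to each of the 7, with lower counts of the 7 given as values. One listed gene that met this rule is not reported here. In the libraries of one run, deviations from the fraction mean correlated at 0.41, 0.39 and 0.30 in endothelial-like cells for runs 1, 2 and 3, at 0.22, 0.31 and 0.46 in T or NK-like cells and at 0.41, 0.08 and 0.36 in B or plasma-like cells. The highest correlation with another run was lower than these, except in B or plasma-like cells of run 2, at 0.12. Run 3 was also the cerulein run, so its shared deviations can include the condition. The run number in the labels was therefore tried as a block. Alternatives covered the normalization, the count filter, cell filters, doublets, resolution, complement genes kept in the clustering, shared barcodes, sums of at least 5 cells, haemoglobin counts, the run block and each library left out. Keeping the shared barcodes, the fit of 6 classes, the Cd55 tests in B or plasma-like cells, and leaving out Pi16 cells or the cell with most C3 UMIs were added after the data were seen. Columns that belong to no sample numbered 0.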

Additional observations from a re-analysis of the deposited data

Results flagged for a closer look

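Among the 4 homeostasis libraries, EYFP negative run 2 stood apart for C1q in endothelial-like cells. C1qa was at 6.92 CPM (UMIs scaled to a sum of 1000000) there against 0 to 0.328 in the other 3, and C1qc at 4.62 against 0. Macrophage/monocyte-like cells of that library held 1038 of its C1qa UMIs, and whether these contributed to the value in endothelial-like cells was not tested. In ductal-like cells C4b was at 0 CPM in EYFP positive run 2, from 25 cells, against 6.85 to 7.37 in the other 3 homeostasis libraries. There were 9 groups of 4 libraries read in this way, and chance sets a library apart in about 1 in 20.

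For Cd55 in B or plasma-like cells, cerulein over homeostasis was -0.28 on the log2 scale in EYFP positive and 0.53 in EYFP negative cells, a difference of -0.82 that was not tested. In EYFP negative cells cerulein lay above homeostasis runs 1 and 2, and a counting interval of that ratio is not given here. In EYFP positive cells the ratio was 0.842 with a counting interval of 0.642 to 1.10, which includes no change. There cerulein (331 CPM) lay close to homeostasis run 1 (334) and below run 2 (474). This was 1 of 2 pairs of gene and class read for opposite directions.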

How the results depend on the processing

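Between classes, 552 of 592 recomputed differences of the 7 genes kept their direction and side of the threshold. The same held for 109 of 126 after cerulein and 73 of 81 between the EYFP fractions. All 49 recomputed levels moved by less than 1 SD, but a mean with 1 library left out cannot move by more. C4b in macrophage/monocyte-like cells averaged 57.1 CPM, and from 3.93 to 76.2 with 1 library left out. Few cells limit the comparisons within classes: cerulein in macrophage/monocyte-like cells could not be fitted without EYFP negative cerulein, in fibroblast-like cells without any library, and in ductal-like cells without EYFP positive cerulein. EYFP in macrophage/monocyte-like cells could not be fitted with stricter cells, without EYFP positive homeostasis run 2 or with the run block, and EYFP in fibroblast-like cells only with sums of at least 5 cells. The causes of the changes below were not tested.

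Counts of genes called moved most. For cerulein in macrophage/monocyte-like cells (65 called) there were 204 with DESeq2's size factors in edgeR, 14 with DESeq2, 182 without a count filter, 2 with stricter cells, 4 with sums of at least 5 cells and 1 with shared barcodes kept. In fibroblast-like cells (76) there were 12 with DESeq2, 0 with doublets kept and 23 without Pi16 cells. In ductal-like cells (5) there were 0 with DESeq2, 15 without a filter, 11 with doublets kept, 11 with shared barcodes kept, 1 without haemoglobin genes and 12 without the cell with most C3 UMIs. In endothelial-like cells (4) there were 7 with DESeq2, 53 without a filter, 1 at resolution 0.5 and 2 with shared barcodes kept. Between the EYFP fractions, macrophage/monocyte-like cells (11) gave 72 with DESeq2's size factors, 64 without a filter and 0 each with DESeq2, with sums of at least 5 cells and with shared barcodes kept. Ductal-like cells (29) gave 1, 61 and 6 with DESeq2, without a filter and with shared barcodes kept. Endothelial-like cells (5) gave 40 without a filter, 3 with stricter cells, 0 at resolution 0.5, 3 with complement genes clustered, 2 with shared barcodes kept and 9 with the run block. With 1 library left out the counts ranged, for cerulein, from 32 to 71 in macrophage/monocyte-like, 10 to 26 in ductal-like, 2 to 14 in endothelial-like cells and 1 to 332 in B or plasma-like cells (116), and for EYFP from 0 to 71, 12 to 54, 1 to 7 and 1 to 19 (5). Fibroblast-like against ductal-like cells ranged from 2239 to 3591 and against endothelial-like cells from 2224 to 3413. The run block in ductal-like cells kept the call of C3 (-2.45), in B or plasma-like cells it gave 17 called genes against 5 and left Cd55 at 0.28 (adjusted p = 0.95, edgeR), and it changed no other call of the 7 genes.

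The following log2 differences changed sign. C4b in macrophage/monocyte-like against fibroblast-like cells was -1.06 with DESeq2 and from -4.75 (without EYFP negative homeostasis run 2) to 1.55 with 1 library left out, and against ductal-like cells from -0.57 (without that library) to 5.08. Cd55 in macrophage/monocyte-like against ductal-like cells was -0.37 with stricter cells and from -2.47 (without that library) to 0.99 with 1 left out, and against endothelial-like cells -0.59 with stricter cells, -0.12 with shared barcodes kept and from -3.49 (without that library) to 0.46 with 1 left out. C1qc in fibroblast-like against endothelial-like cells was 0.70 with DESeq2, 0.11 with sums of at least 5 cells, 0.29 with shared barcodes kept and from -0.70 to 0.34 (without that library) with 1 left out. In ductal-like against endothelial-like cells Cd55 ranged from -1.02 to 0.0090 (without EYFP positive homeostasis run 1) and C1qa from -1.15 to 1.39 (without EYFP negative homeostasis run 2) with 1 left out, Serping1 was -0.99 at resolution 0.5 and -0.82 with complement genes clustered and C1qb 0.11 with shared barcodes kept. After cerulein in fibroblast-like cells Serping1 was 0.50 with sums of at least 5 cells and 0.070 without Pi16 cells, C4b -0.058 with DESeq2 and -0.29 with sums of at least 5 cells, and C3 0.17 without Pi16 cells. EYFP positive over EYFP negative in macrophage/monocyte-like cells was -0.10 without a filter and from -0.069 (without EYFP negative homeostasis run 1) to 1.5 with 1 left out for C1qa and 0.13 with sums of at least 5 cells for C4b. Cd55 after cerulein in B or plasma-like cells was -0.0085 with shared barcodes kept, and ranged from -0.38 to 0.34 with 1 library left out, with -0.01 and -0.14 without EYFP negative homeostasis runs 1 and 2.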
